A study of Mus musculus with 6 samples.

Results

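The pentose phosphate pathway and its partner enzymes keep cells supplied with NADPH, the reducing agent that regenerates reduced glutathione and thioredoxin and feeds lipid synthesis. Its oxidative branch converts glucose 6-phosphate to ribulose 5-phosphate and makes NADPH on the way, while its non-oxidative branch interconverts sugar phosphates and so links ribose to glycolysis. Cytosolic malic enzyme and cytosolic isocitrate dehydrogenase also make NADPH, and the quinone reductase Nqo1 spends NADPH or NADH to reduce quinones. Several of these genes are textbook targets of the antioxidant transcription factor NRF2.

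The 10 genes described here were chosen by name for these roles, and all 10 were found by symbol among the 27179 genes of the expression table. They comprise the oxidative enzymes G6pdx, Pgls and Pgd, the non-oxidative enzymes Rpia, Rpe, Tkt and Taldo1, the NADPH makers Me1 and Idh1, and Nqo1. RNA came from B16F10, an established mouse melanoma line labelled as wild type, kept in medium with fetal bovine serum. In 3 libraries the cells had received 0.01% olive oil (OLO, the control), and in 3 they had received 0.01% ozonated olive oil (OZO), each for 6 h. The line is a single one, and the labels do not state whether the libraries came from separate cultures, although the study describes its replicates as independent experiments. The question of the study was what OZO changes in melanoma cells. The level available here for each gene is the authors' mean over all 6 libraries, OZO and OLO together. Separate levels of OZO- and OLO-treated cells were not analysed here, so every value below describes the cells of both treatments pooled, carries no replicate error, and allows no test of a difference.

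Levels are in log2 CPM, where CPM is the reads of a gene scaled to a common library size, and a CPM value below is 2 raised to that mean. Genes without any read, 6025 in number, share the lowest mean of the table, and this value places the geometric mean library size at 19641945 counted reads, so that 1 CPM corresponds to 19.6 reads per library. Reads were found for the other 21154 genes. Against the melanoma label were set 7 melanocyte markers, all of which had reads and lay between 109 CPM (Sox10) and 7052 CPM (Dct). Of 12 markers of keratinocytes, fibroblasts, leukocytes and endothelium, 11 had reads, Krt5 had none, and their highest level was 3.28 CPM (Pdgfra).

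The start regions of G6pdx and Me1 are shown as examples with the NRF2-type motif close to a RefSeq start. That of Nqo1 is shown because it holds the only TATA box of the group. Pgd also holds the NRF2-type motif close to a RefSeq start, from 3 to 11 bases after it, but is not shown. Each run is the RefSeq sequence of GRCm38.p6 (the mm10 build), read 5′ to 3′ on the minus strand on which all 3 genes lie, from 150 bases before the annotated start base to 29 bases after it. Capitals mark the core of the antioxidant response element (ARE, the letters TGACNNNGC on either strand), to which NRF2 binds with its small MAF partners, in G6pdx and Me1, and the TATA box (TATAAA) in Nqo1.
G6pdx, chrX:74428851-74429030: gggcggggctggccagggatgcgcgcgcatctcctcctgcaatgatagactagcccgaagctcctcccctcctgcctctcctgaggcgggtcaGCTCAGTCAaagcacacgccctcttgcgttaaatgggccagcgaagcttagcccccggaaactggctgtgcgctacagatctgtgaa
Me1, chr9:86695885-86696064: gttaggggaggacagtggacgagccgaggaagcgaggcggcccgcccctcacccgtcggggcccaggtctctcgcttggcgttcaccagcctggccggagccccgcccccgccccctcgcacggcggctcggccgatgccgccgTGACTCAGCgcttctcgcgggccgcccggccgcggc
Nqo1, chr8:107403176-107403355: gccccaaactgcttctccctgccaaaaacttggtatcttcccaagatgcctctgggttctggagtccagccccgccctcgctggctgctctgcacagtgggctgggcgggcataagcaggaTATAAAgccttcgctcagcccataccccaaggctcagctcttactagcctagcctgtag
In G6pdx the ARE core lay on the reverse strand, from 57 to 49 bases before the RefSeq start base at 74428880. GENCODE M21 places the 5′ end of G6pdx further upstream, at 74429194, so that the match lies inside the gene as annotated there. In Me1 the ARE core lay on the forward strand and spanned the RefSeq start base at 86695914, from 6 bases before to 2 bases after it. GENCODE M21 places the 5′ end of Me1 further upstream too, at 86695953, so that this match also lies inside the gene as annotated there. In Nqo1 the TATA box lay from 29 to 24 bases before the start.

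RefSeq windows of 300 bases, from 250 bases before each start base to 49 after it, were present for all 10 genes, with 13 windows in all because Idh1, Me1 and Pgd each have an outer and an inner start. The ARE core was found in 3 of the 13 windows, those of G6pdx, the outer start of Me1 and the inner start of Pgd, and in 12.4% of all 32851 windows of the mouse genome set. A GC box (GGGCGG on either strand), the binding motif of SP1-type factors, was found in 11 of the 13 windows and at 1 or more starts of all 10 genes, against 35.7% of all windows. The CCAAT box (CCAAT on either strand) was found in 5 of the 13 windows and in 37.4% of all windows. Nqo1 alone among the 10 genes had a TATA box (either strand), which 13.6% of all windows hold, and the E-box CACGTG was found in 0 of the 13 windows and 7.15% of all. Motifs were searched independently, and 1 pair of neighbouring GC boxes in Tkt overlapped by 1 base. Absence of the ARE letters from the Nqo1 window concerns only these 300 bases.

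**Figure D1:**
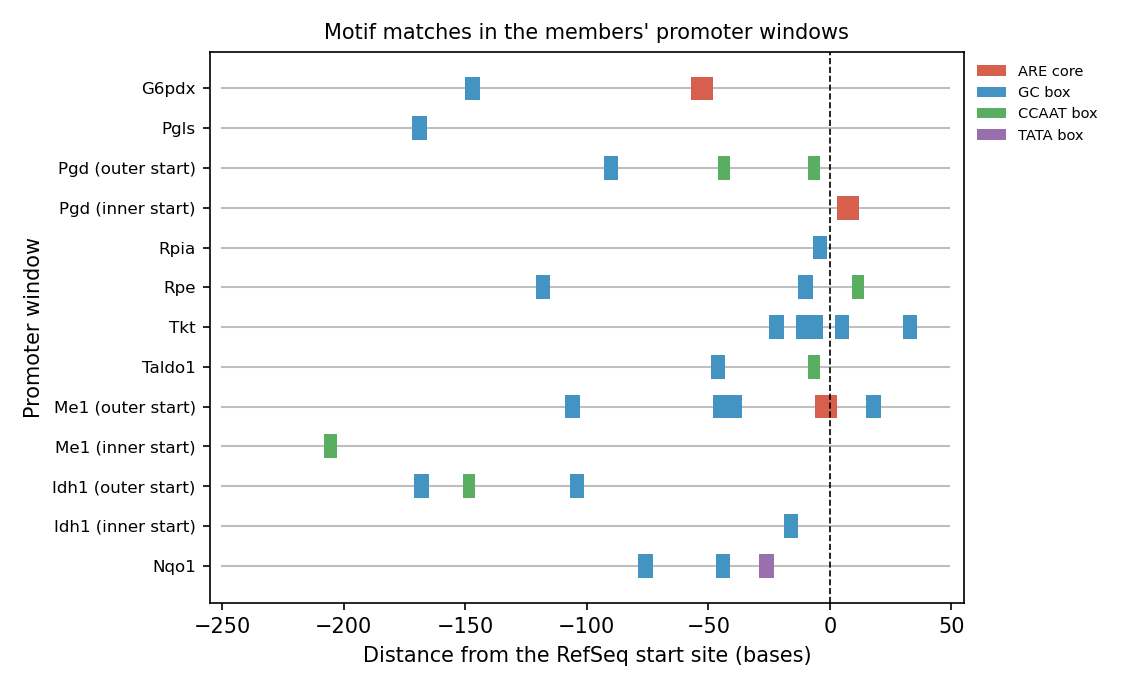
Matches to the ARE core, GC box, CCAAT box and TATA box in the 13 RefSeq promoter windows of the 10 genes, by distance in bases from the annotated start (dashed line at 0); each row is 1 window and each block 1 match on either strand. GC boxes occur at every gene, whereas ARE cores occur in 3 windows and the TATA box in 1.

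Windows of the group were also rich in G and C, with a median of 60.7% G and C against 52.7% over all windows, and a median ratio of observed to expected CpG of 0.76 against 0.38. The outer start of Me1 had the highest content, 74.7%. Nqo1 departed from the other first starts, with 53.7% G and C and a CpG ratio of 0.25. The inner start of Me1 was the only window of the group with a lower CpG ratio, 0.23.

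All 10 genes were expressed above 1 CPM, a level reached by 11878 of the genes in the table, and their median was 6.52 log2 CPM, against 1.45 over all genes with reads. Of the 10 genes, 7 lay among the top 25% of genes with reads, which began at 39.1 CPM. Rpia, Nqo1 and Pgls lay below it. The spread within the group was wide, from 199 CPM for Tkt to 4.08 CPM for Pgls.

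**Figure D2:**
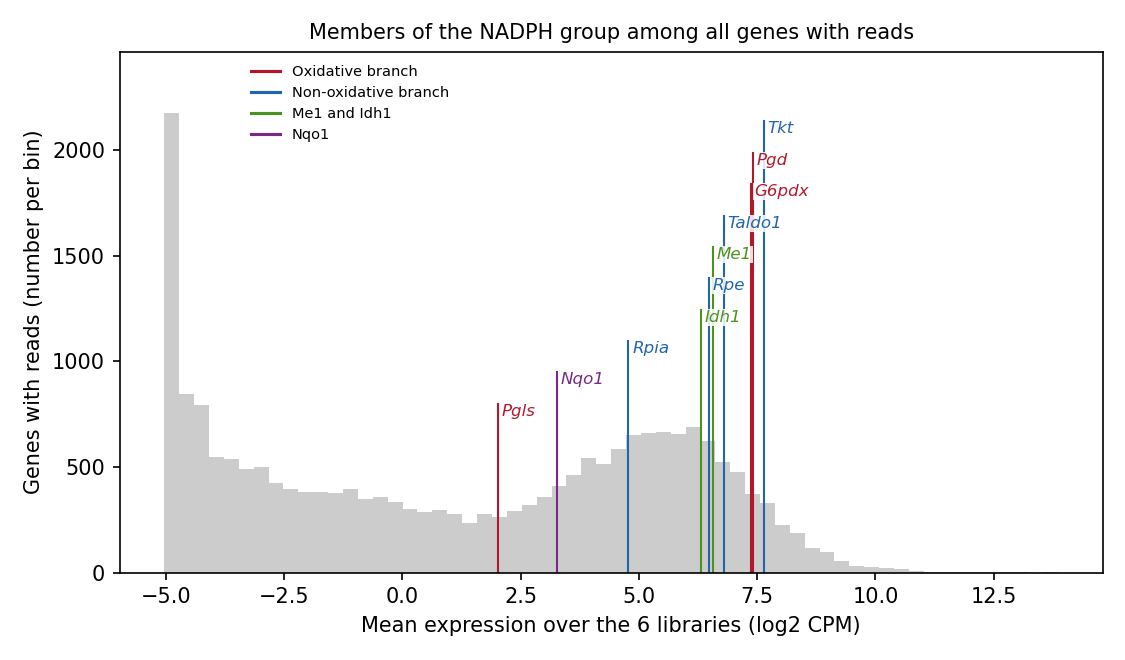
Distribution of the authors' mean log2 CPM over the 6 libraries for the 21154 genes with reads (grey bars, genes per bin), with a coloured line at the level of each of the 10 genes; line height only separates the labels. The lines of 7 genes crowd between 6.30 and 7.64 log2 CPM, and those of Rpia, Nqo1 and Pgls stand apart to the left.

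The first oxidative step is carried out by glucose-6-phosphate dehydrogenase, the gate of the pathway. G6pdx lies on chromosome X from 74409483 to 74429194 (minus strand) and has 13 exons in its longest coding transcript. It averaged 7.36 log2 CPM, or 165 CPM, which rested on about 3232 reads per library and exceeded 93.6% of genes with reads. The exons of G6pdx share 418 bases, 13.6% of their merged length, with Ikbkg on the opposite strand, a gene at 6.14 log2 CPM. The third enzyme of the branch, 6-phosphogluconate dehydrogenase, makes the second NADPH. Its gene Pgd, on chromosome 4 from 149149991 to 149166771 (minus strand), averaged 7.41 log2 CPM, or 170 CPM from about 3331 reads. Pgd and G6pdx, the NADPH-making pair of the branch, stood at ranks 1313 and 1363 of 21154 genes.

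Between them acts 6-phosphogluconolactonase, which opens the lactone that G6pdx makes. Pgls, on chromosome 8 from 71592176 to 71601092 (plus strand), averaged 2.03 log2 CPM, or 4.08 CPM, the lowest of the group, and stood at rank 10096. Its value rested on about 80.1 reads per library, so that relative counting error is larger for Pgls than for any other gene of the group. Per kb of its longest coding transcript, Pgls had 3.84 CPM, whereas Pgd had 76.5 and G6pdx 62.0, which is 19.9 and 16.2 times as much. With coding length as the divisor these ratios were 22.1 and 20.1, and with all annotated exons merged 24.3 and 49.4. Longer annotated forms of Pgls share 776 exonic bases, 20.6% of its merged exons, with Fam129c on the same strand (2.34 log2 CPM), but its longest coding transcript shares 0%. What part this overlap has in the count was not tested.

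In the non-oxidative branch, ribulose 5-phosphate goes either to ribose 5-phosphate through Rpia (ribose-5-phosphate isomerase) or to xylulose 5-phosphate through Rpe (the epimerase). Rpe, on chromosome 1 from 66700831 to 66719805 (plus strand), averaged 6.48 log2 CPM, or 89.4 CPM from about 1756 reads. Of its longest coding transcript, 20.6% is shared with exons of Kansl1l on the opposite strand, which averaged 5.91 log2 CPM. Rpia, on chromosome 6 from 70765720 to 70792232 (minus strand), averaged 4.78 log2 CPM, or 27.5 CPM from about 539 reads. Per kb, Rpe had 33.0 CPM and Rpia 15.0, a ratio of 2.19 that was 4.20 by coding length and 5.60 by merged exons.

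Transketolase and transaldolase then move 2- and 3-carbon units between the sugars. Tkt, on chromosome 14 from 30548359 to 30574720 (plus strand), was the most abundant of the 10 by CPM, with 7.64 log2 CPM from about 3912 reads, above 95.1% of genes with reads. Taldo1, on chromosome 7 from 141392199 to 141402968 (plus strand), averaged 6.79 log2 CPM, or 111 CPM from about 2181 reads. Because its longest coding transcript has 1362 bases against 3223 for Tkt, the order turned when length was taken into account, with 81.5 CPM per kb for Taldo1 and 61.8 for Tkt. It turned back with coding length, by which Tkt had 107 CPM per kb and Taldo1 96.9, but not with merged exons, by which Taldo1 had 51.1 and Tkt 27.1. Both lay above Rpia under each of the 3 lengths. Tkt had 4.12 times the level of Rpia per kb of transcript, 3.53 times by coding length and 5.28 times by merged exons. For Taldo1 the ratios were 5.43, 3.21 and 9.98.

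Of the other NADPH makers in the group, Me1 (cytosolic malic enzyme) lies on chromosome 9 from 86581371 to 86695953 on the minus strand. It averaged 6.57 log2 CPM, or 94.8 CPM from about 1862 reads. Reads of Me1 may be shared with annotated copies, since 1638 bases of its transcript match the processed pseudogene Gm7049 at 98.5% identity and 1159 bases match Gm48795, a long noncoding RNA read from the other strand, at 98.7%. How the authors counted reads with several matches is not given in the sources used here. Idh1 (cytosolic isocitrate dehydrogenase), on chromosome 1 from 65158616 to 65186500 (minus strand), averaged 6.30 log2 CPM, or 79.0 CPM from about 1552 reads. Per kb, Idh1 had 34.3 CPM and Me1 28.8.

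Nqo1, the NADPH-using member, lies on chromosome 8 from 107388225 to 107403206 (minus strand) and has 1 annotated coding transcript with 6 exons. It averaged 3.26 log2 CPM, or 9.59 CPM from about 188 reads, at rank 8836. That level exceeded 58.2% of genes with reads. No exon of Nqo1 overlaps another annotated gene, and no near-identical copy was found among annotated transcripts. Per kb of transcript it had 6.17 CPM, and only Pgls was lower in the group. With merged exons Rpia was lower too, with 5.12 CPM per kb.

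Ordered by CPM per kb of the longest coding transcript, the genes ran Taldo1, Pgd, G6pdx, Tkt, Idh1, Rpe, Me1, Rpia, Nqo1 and Pgls. Neighbouring genes were often close. G6pdx and Tkt differed by a factor of 1.004, Idh1 and Rpe by 1.04 and Taldo1 and Pgd by 1.07. No spread between libraries was at hand to say whether such neighbours differ. The wider gaps were those between Tkt and Idh1 (1.80), Me1 and Rpia (1.92), Rpia and Nqo1 (2.43) and Nqo1 and Pgls (1.61). Pgls was last and Me1 seventh under each of the 3 lengths tried, and Rpia, Nqo1 and Pgls filled the last 3 places under each. The order of the upper 6 depended on the length, and so did that of Rpia and Nqo1, whose ratio of 2.43 became 0.83 with merged exons. Rpe moved from the sixth place to the first by coding length, since its coding part makes up 705 of 2713 bases. With all annotated exons merged, Pgd moved from the second place to the sixth.

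**Figure D3:**
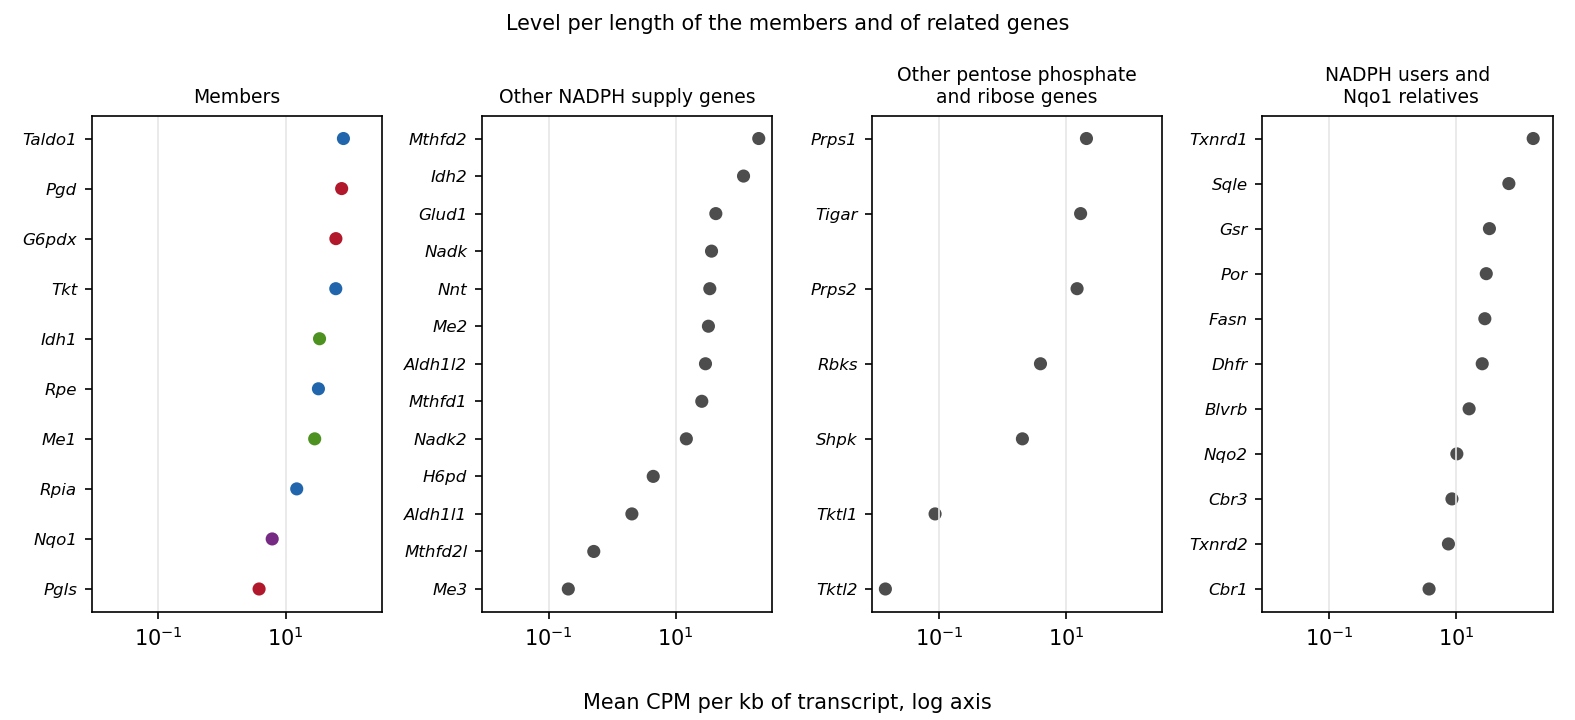
Mean CPM per kb of the longest coding transcript (log axis, pooled over the 6 libraries, no error available) for the 10 genes at left and for 3 lists of related genes; each point is 1 gene, coloured at left by role (red, oxidative branch; blue, non-oxidative branch; green, Me1 and Idh1; purple, Nqo1). The 10 genes lie between 3.84 and 81.5 CPM per kb, while Tktl1 and Tktl2 lie below 0.1 in the third panel.

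Set beside their isoenzymes, G6pdx and Tkt were the higher form, Idh1 and Nqo1 the lower, and Me1 and Me2 changed places with the length used. H6pd, Me2 and Nqo2 were picked out for this after their values had been seen. H6pd, which encodes the form of the first enzyme found in the endoplasmic reticulum, had 4.41 CPM per kb, and G6pdx had 14.1 times as much. The transketolase-like genes Tktl1 and Tktl2 averaged -2.22 and -3.67 log2 CPM, which stand for about 4.22 and 1.55 reads per library, 0.5 added reads included, against 3912 for Tkt. Malic enzyme RNA was divided between the cytosolic Me1, with 28.8 CPM per kb, and the mitochondrial, mainly NAD+-using Me2, with 32.6. Their order turned with coding length, where the ratio of Me2 to Me1 was 0.88 in place of 1.13, and with merged exons, where it was 0.48. Me3, the mitochondrial form that works with NADP+, averaged -0.13 log2 CPM, or 0.20 CPM per kb. For isocitrate dehydrogenase the mitochondrial form was the higher, as Idh2 had 116 CPM per kb, 3.39 times Idh1, and 2.35 times by coding length. Nqo2, the relative of Nqo1 that prefers other hydride donors to NADPH, had 10.2 CPM per kb, 1.65 times Nqo1, and 4.84 times by coding length.

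Of 31 further genes of NADPH and ribose metabolism, listed by role, all had reads, and 28 reached 1 CPM. Another 13 genes were listed for NADPH supply, including the NAD kinases Nadk and Nadk2 that make its precursor NADP+. Cofactor preference was not weighed in the list, and Mthfd2, Me2 and Glud1 work mainly or in part with NAD+. Of the 13 genes, 9 lay among the top 25% of genes with reads. Exons of Nnt, which is among these 9, are shared in full (100%) with another annotated gene on the same strand. What part this overlap has in its count was not tested. Mthfd2, a mitochondrial folate enzyme, was the highest with 8.72 log2 CPM, followed by Idh2 with 7.67 and Aldh1l2, the mitochondrial formyltetrahydrofolate dehydrogenase, with 7.47. Me3, Mthfd2l (0.15 log2 CPM) and Aldh1l1 (3.09), the cytosolic counterpart of Aldh1l2, were the lowest. The median of these 13 genes was 29.3 CPM per kb, against 33.6 for the 10 genes.

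Among 7 other pentose phosphate and ribose genes, Tigar, a fructose bisphosphatase that turns glucose 6-phosphate toward the pathway, averaged 5.95 log2 CPM. The phosphoribosyl pyrophosphate synthetases Prps2 and Prps1, which take ribose 5-phosphate into nucleotides, averaged 5.78 and 5.36. Below them the ribokinase Rbks averaged 2.04, above only Tktl1 and Tktl2. The median of these 7 genes was 3.96 CPM per kb.

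Among 11 NADPH users and relatives of Nqo1, 7 lay among the top 25% of genes with reads. Txnrd1, the cytosolic thioredoxin reductase, was the highest at 9.19 log2 CPM, and per kb it had 26.2 times the level of Nqo1 (13.4 times with merged exons). Fasn (fatty acid synthase) averaged 8.14 and Sqle (squalene epoxidase) 7.53. At the other end, the carbonyl reductases Cbr1 and Cbr3 averaged 2.20 and 3.32 and the biliverdin reductase Blvrb 4.03 log2 CPM. Cbr1, with 3.72 CPM per kb, lay below Nqo1 on that scale.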

How the data were processed

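RNA from 6 B16F10 libraries (3 OLO, 3 OZO) was sequenced after directional library preparation. Per the submitters' processing notes and the methods, the authors aligned reads to mm10 with HISAT2 (2.1.0), used StringTie (1.3.4d) for TPM, and used featureCounts (2.1.1) and limma-voom (limma 3.58.1) for the comparison; strand use and treatment of reads with several matches are not given in the sources used here. The deposited table holds 1 mean log2 CPM per gene over all libraries, to which voom adds 0.5 reads per count, beside the authors' own fold change, moderated statistic, unadjusted and adjusted p-values and log-odds. The latter columns were not used, so no groups were compared, no model was fitted and the count and TPM designs planned were not run. Groups came from sample titles. Depth per library is unknown, and no interval was formed.

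The 10 genes and all lists were chosen with earlier results of these data known. Other genes named were the 3 highest and 3 lowest of each list by mean level, with exceptions stated; 1 gene of the lists is not reported here. Lengths (longest protein-coding transcript), positions and overlaps came from GENCODE M21 on GRCm38, where 23882 of 24126 Ensembl identifiers were found. All 27179 genes carry an Entrez identifier, but only 24126 an Ensembl one. The paper names a UCSC annotation for StringTie and none for featureCounts. Reads may therefore have been counted on other gene models, which would affect levels per kb, overlaps and copies. Promoters came from RefSeq (GRCm38.p6). Copies were transcripts matching at least 100 bases at 95% identity or more (blastn 2.17.0). The recovery of library size was run on simulated data as a check of the code only. Those data were made with the formula that the recovery inverts, so its outcome was fixed in advance. It cannot show whether the authors' means were made in that way. Alternatives were other sets of genes ranked and other lengths. Python 3.11.15, numpy 2.4.6, pandas 2.3.3, scipy 1.17.1 and matplotlib 3.10.9 were used.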

Additional observations from a re-analysis of the deposited data

How the results depend on the processing

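No paired analysis was possible because the value used is 1 mean over all 6 libraries, so no library has a value of its own. Another test, another normalization, another pseudocount, a filter on the counts of single libraries and leaving out each library were not run either. Ranked among genes with a symbol, 7 of the 10 genes lay among the top 25%, as in the report, and percentiles ran from 50.9 (Pgls) to 94.9 (Tkt). Ranked among the 11878 genes at or above 1 CPM, 6 did, since Idh1 then stood at 73.6, and percentiles ran from 15.0 (Pgls) to 91.2 (Tkt), because a set without weakly expressed genes holds fewer genes below each. Of the 10 places in the order per length, 5 were kept with coding length and 2 with all annotated exons merged, both chosen after the data had been seen, the first in place of a length from protein sequences. The geometric mean of reads plus 0.5 per library was 80.1 for Pgls and 188 for Nqo1, against 539 or more for the other 8 genes.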
